A study of Ooceraea biroi with 96 samples.

Results

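Brains of 24 clonal raider ants (Ooceraea biroi) that had been reared in colonies of lineage M and sampled at an age of 8 days were compared by their own genotype, 14 of genotype M against 10 of genotype B. They were all the libraries labelled with that age and that social environment, out of 96 in the study. The 2 genotypes differed in 364 genes. A small set of genes was read almost only in 1 genotype, 40 genes differed by more than 4-fold, and 204 differed by less than 1.5-fold.

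The clonal raider ant has no queens. All workers of a colony can lay unfertilised eggs that develop into daughters nearly identical to their mother, so a lineage is a clone and ants of different lineages can be mixed in 1 colony as young. In the study, larvae of both lineages were moved just after hatching into colonies of either lineage, and whole brains were taken from adults aged 1 or 8 days, 1 brain per library. The comparison of genotypes within M colonies asks how an ant's own genes bear on its brain transcriptome when the nestmates are of the same lineage for both genotypes. Genotype M ants lived with their own lineage and genotype B ants with a foreign one, so within these colonies the genotype difference cannot be told apart from that of being a native or a foreign ant. Each genotype is a single clonal lineage, and a difference between them stands for these lineages only. Every library is a different ant per the labels, the sources used here do not say which ants shared a colony, and all p-values treat ants as independent. Product names were not at hand in the annotation, so the genes below are described by identity, place, level and class, and markers of brain cell types could not be checked. In whole brains, fewer cells of a type and less RNA per cell cannot be told apart.

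Library totals ranged from 12.32 to 20.07 megacounts (median 14.14) in genotype M and from 10.7 to 21.57 megacounts (median 16.74) in genotype B, and between 10046 and 11001 genes had a count. In 4 of the 24 libraries the correlation with the other libraries of the group was more than 3 scaled median absolute deviations below the group's median. They were genotype M replicates 6, 9 and 12 and genotype B replicate 2, in which 539, 192, 243 and 264 of 7714 genes of at least 5 CPM (counts per megacount of the library) lay 2-fold or more from their group, against 31 to 103 genes in the other 20 libraries. Genotype B replicate 2 also had the fewest counts. The first principal component (20.6% of the variance) did not follow genotype, which accounted for 1.65% of it, and genotype M replicate 9 lay farthest out. The second component (15.5%) separated the genotypes without overlap, with scores of -2.94 to 42.4 in M and -20.5 to -4.32 in B.

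Of 9210 genes tested with edgeR's quasi-likelihood F test, 364 (3.95%) were called at a Benjamini-Hochberg adjusted p under 0.05, and 1398 (15.2%) had an unadjusted p under 0.05. Genotype M was higher in 148 genes (1.61%) and lower in 216 (2.35%). Most differences were small, with a median size of 0.50 on the log2 scale among the called genes and 0.09 among all tested genes. Large ones were split evenly: 45 genes were at least 2-fold higher and 50 at least 2-fold lower (95 in all, 1.03% of genes tested), and 20 in each direction passed 4-fold. Below 2-fold more genes were lower than higher in M, 127 against 77 under 1.5-fold and 39 against 26 between 1.5-fold and 2-fold. Genes with large differences were weakly expressed, at a median of 2.25 CPM for those over 4-fold against 40.5 CPM for those under 1.5-fold and 36.5 CPM for all tested genes. Small differences pass the test more readily at high counts, so the contrast between called genes depends in part on the test. In 73 genes (0.793% of those tested; 39 higher and 34 lower in M) every brain of 1 genotype lay above every brain of the other. All 73 were among the called genes. Without the 4 libraries that stood apart, 409 genes were called (163 higher and 246 lower), 311 of them among the 364.

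**Figure D1:**
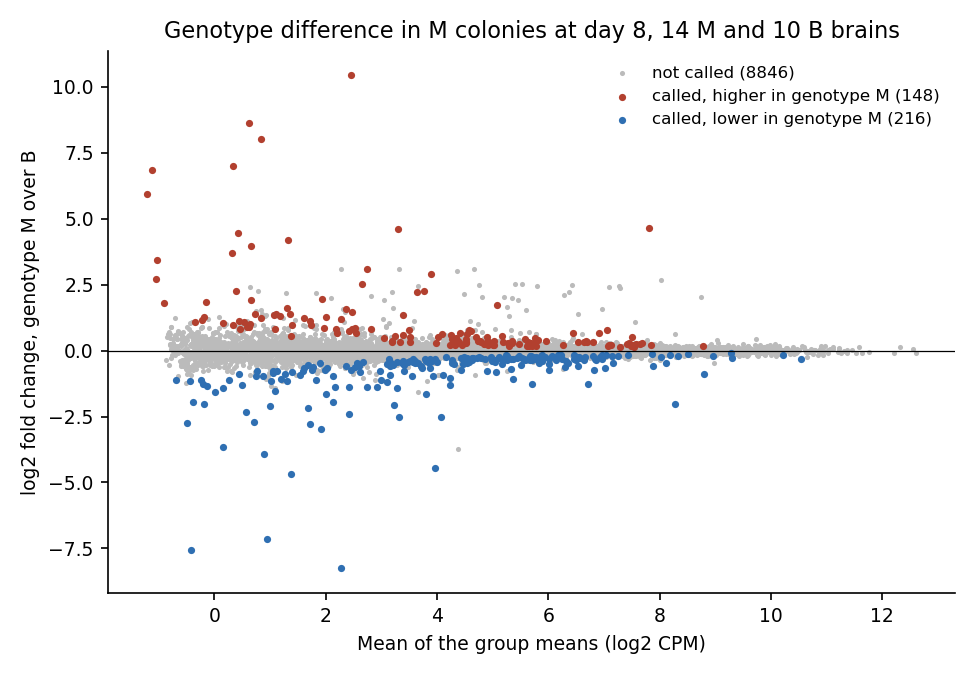
Log2 fold change of genotype M over B (vertical axis) against the mean of the group means in log2 CPM (horizontal axis) for the 9210 genes tested in M colonies at day 8, 1 point per gene. The 148 genes called higher in M are red, the 216 called lower are blue and the others grey; large differences lie mostly at low levels, and a group of grey points above 1 on the vertical axis were higher in M without passing the test.

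A further 72 genes differed by at least 2-fold without passing the test, 62 of them higher in M. In 51 of those 62 the highest M value was that of genotype M replicate 9. That library held 1690 CPM of LOC105277700, where the other 13 M brains had 3.42 to 191 CPM, and 574 CPM of LOC105276112, where the others had 0.327 to 36.6 CPM. LOC105282008 stood at 418 CPM in it and at no more than 47.1 CPM in the other M brains. These 3 genes were chosen after their values were seen, and their adjusted p-values were 0.284, 0.227 and 0.173 (edgeR). Variation between brains was larger in genotype M over 7015 genes of at least 10 CPM. The median coefficient of variation was 13.4% in M against 9.37% in B, and 10.8% against 8.82% without the 4 libraries. This difference was not tested, and median library totals were 14.14 megacounts in M and 16.74 megacounts in B.

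Almost only 1 genotype was taken as a mean of at least 1 CPM in it and under 0.1 CPM in the other genotype. Of the 9210 genes tested, 4 called genes were expressed almost only in M and 3 almost only in B. Just under the limit of 1 CPM were LOC105276626 and LOC113563303, at means of 0.915 and 0.854 CPM in M. They had 0 and 1 counts in B and were picked out after their values were seen. At each of the 7 genes all 24 brains fell on the side of their labelled genotype. The genes were picked by the means of these same brains, so this is no independent check of the labels. The strongest was LOC113562066, a protein-coding gene of 2 exonic segments on chromosome 6 (8378774 to 8379678). It had 2260 counts in the 14 M brains, at 7.36 CPM in the lowest, 10.4 in the median and 15.6 in the highest brain, and 0 counts in all 10 B brains. Its mean in M was 11 CPM ± 2.66 (n = 14, SD), at least 610-fold higher than a floor of 3 counts over the B libraries (adjusted p = 8.68e-14). LOC113563188, a long noncoding RNA (lncRNA) gene of chromosome 13 (26920 to 29494), also had 0 counts in the B brains. In M it ranged from 0.969 to 5.51 CPM with a median of 3.09, and its mean of 3.08 CPM ± 1.16 (n = 14, SD) was at least 173-fold above the same floor (adjusted p = 1.21e-09).

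The other two M genes had a few counts in B. LOC113562844 on chromosome 10 (1127920 to 1129159) had 748 counts in M, between 2.57 and 4.53 CPM with a median of 3.63, and 1 count in B. Its mean in M was 3.59 CPM ± 0.684 (n = 14, SD), and the ratio of pooled rates was 606 with an exact counting interval of 108 to 24000 (adjusted p = 2.79e-16). LOC105276304 on chromosome 9 (14463566 to 14469960), a single-segment gene, had 546 counts in M (1.02 to 5.48 CPM, median 2.01) and 2 in B. The ratio was 221 with a counting interval of 60.9 to 1830 (adjusted p = 2.69e-10). Its exon bases are partly those of a second same-strand gene, and its counts may hold reads of that gene.

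Of the genes read in B, LOC113563356 on chromosome 14 (8277676 to 8283690) stood highest. Its 12 exonic segments collected 1614 counts in the 10 B brains (7.65 to 12.4 CPM, median 9.81) and 5 in the 14 M brains. The means were 9.71 CPM ± 1.41 (n = 10, SD) and 0.0249 CPM ± 0.035 (n = 14, SD), a 399-fold difference of pooled rates (adjusted p = 5.55e-18). LOC113563366, on the same chromosome (320739 to 327381), had 637 counts in B (2.38 to 5.10 CPM, median 3.85) and 4 in M, a 197-fold difference (adjusted p = 8.68e-14). It shares exon bases with a gene on the opposite strand, and no source used here gives the strand setting of the counting. LOC105283886 on chromosome 13 (2411491 to 2417676) had 248 counts in B (0.968 to 2.23 CPM, median 1.41) and 0 in M. The floor of 3 counts over the M libraries makes it at least 102-fold lower in M (adjusted p = 2.48e-08). Whether such genes were unexpressed in the other lineage, missing from its genome or poorly matched by its reads was not tested.

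**Figure D2:**
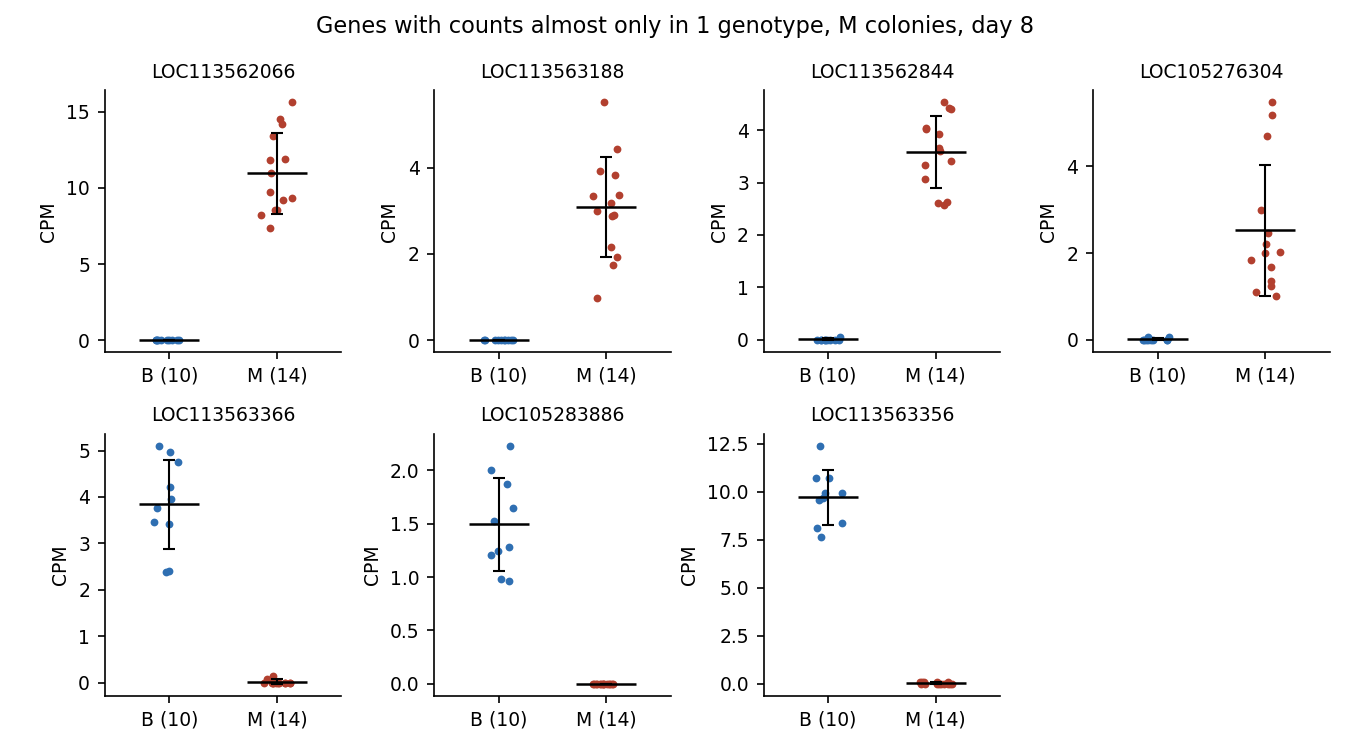
Expression in CPM (vertical axis, own scale in each panel) of the 7 genes with counts almost only in 1 genotype, in 10 brains of genotype B and 14 of genotype M from M colonies at day 8. Each point is a brain, the horizontal line is the mean and the error bar 1 SD; in each panel the brains of 1 genotype lie at or near 0 and those of the other above them.

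Outside these 7 genes, and among called genes of at least 1 CPM in the higher group, log2 fold changes reached 4.63 on the M side and -4.69 on the B side. On the M side LOC113562974, which has 4 exonic segments on chromosome 11 (13023953 to 13025784), ranged from 15.7 to 22.7 CPM in M with a median of 18.6 and from 0.278 to 0.999 CPM in B with a median of 0.815. The groups were far apart, with means of 18.9 CPM ± 2.07 (n = 14, SD) and 0.750 CPM ± 0.202 (n = 10, SD) and a log2 fold change of 4.62 ± 0.12 (SE, with adjusted p = 1.88e-20). LOC113561374 on chromosome 7 (16588031 to 16592433) lay between 7.43 and 16 CPM in M (median 11.5) and between 0.650 and 1.81 CPM in B (median 1.48). It was higher in every M brain than in any B brain, by a log2 fold change of 3.09 ± 0.16 (SE, with adjusted p = 6.17e-14). LOC105285513 on chromosome 14 (809355 to 821353) was higher in M by 3.70 ± 0.46 (SE, with adjusted p = 2.31e-06), though it varied more among M brains, from 0.580 to 4.93 CPM, against 0 to 0.396 CPM in B.

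A further 3 genes of this size overlap other genes, so their counts may be shared. They were LOC113561389 on chromosome 11 (log2 fold change 4.45 ± 0.35 SE), the lncRNA LOC109610738 on chromosome 8 (3.95 ± 0.30 SE), both with a partner on the opposite strand, and LOC105282891 on chromosome 7 (4.20 ± 0.28 SE), with partners on both strands. Their M brains stood at medians of 2.61, 3.16 and 4.52 CPM and their B brains at 0.0829, 0.155 and 0.273 CPM. The genotypes did not overlap in any of them (adjusted p of at most 3.73e-10).

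On the B side LOC113563270, a single-segment gene on chromosome 13 (5481763 to 5484393), stood out by its level. B brains ranged from 19.7 to 48.7 CPM with a median of 29.4 and M brains from 0.608 to 2.96 CPM with a median of 1.14, a log2 fold change of -4.46 ± 0.21 (SE, with adjusted p = 1.68e-14). It shares exon bases with a gene on the same strand. LOC113562750 on chromosome 10 (5876825 to 5884459) shares none and ranged from 12.5 to 21 CPM in B (median 17.3) and from 1.94 to 4.85 CPM in M (median 2.66). Again no M brain reached the lowest B brain (log2 fold change -2.53 ± 0.15 SE, with adjusted p = 6.51e-13). LOC105283974 on chromosome 1 (15620282 to 15621805) followed the same pattern at a lower level, with medians of 6.78 CPM in B and 0.845 CPM in M (log2 fold change -2.96 ± 0.20 SE, with adjusted p = 2.72e-11).

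Among the other large falls from B to M, LOC105281691, annotated as a miscellaneous RNA on chromosome 11 (56737 to 58832), varied widely in B, from 1.71 to 11 CPM, and stayed between 0 and 0.312 CPM in M (log2 fold change -4.69 ± 0.31 SE, with adjusted p = 1.52e-11). LOC105274458 on the same chromosome (-3.92 ± 0.31 SE) and LOC105284358 on chromosome 4 (-2.74 ± 0.34 SE) share exon bases with a gene on the opposite strand, and their genotypes did not overlap either. In a pair of genes the groups overlapped. LOC105280910 on chromosome 11, which lies over other genes without sharing their exon bases, had counts in 5 of 14 M brains, with a median of 0 and a highest value of 1.34 CPM, and in all 10 B brains, at 0.894 to 3.79 CPM (log2 fold change -3.64 ± 0.60 SE, with adjusted p = 0.000203). The only M brain above the lowest B brain was replicate 6, a library that stood apart, and without it the log2 fold change was -4.68 (adjusted p = 4.21e-07). LOC105285960 on chromosome 3 had counts in 7 of 14 M brains, at up to 1.97 CPM and in 4 of them above the lowest B brain, against 0.679 to 5.60 CPM in B (log2 fold change -2.70 ± 0.63 SE, with adjusted p = 0.0109).

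The 3 most abundant called genes in each direction differed little, apart from LOC113563300 on chromosome 13, described further on. Other abundant genes called lower in M differed more. They include LOC105279007 (log2 fold change -0.88) and LOC105283927 (-2.01), also described further on. LOC105283662 on chromosome 10 (9344476 to 9356607) ranged from 784 to 1630 CPM in M (median 1340) and from 1550 to 1810 CPM in B (median 1650), a log2 fold change of -0.33 ± 0.08 (SE, with adjusted p = 0.0118). LOC105276415 on chromosome 6 (1925916 to 1929786) was lower in M (log2 fold change -0.30 ± 0.07 SE, with adjusted p = 0.0109), with medians of 561 and 699 CPM. In both genes the groups overlapped and the M brains were spread more widely than the B brains. LOC105284665 on chromosome 9 differed by -0.15 ± 0.04 (SE) at a median of 1130 CPM in M and 1250 CPM in B. In the other direction LOC105280070 on chromosome 2 was higher in M by 0.16 ± 0.04 (SE; 456 against 412 CPM) and LOC105279628 on chromosome 9 by 0.21 ± 0.06 (SE; 239 against 219 CPM). The calls of these last 3 genes (adjusted p = 0.0272, 0.0355 and 0.0414) depended on individual brains, since leaving out a single library lost them in 9, 10 and 9 of 24 cases, with adjusted p-values of up to 0.0745, 0.0821 and 0.088. LOC105284665 also lost its call without the 4 libraries that stood apart (adjusted p = 0.0777), and LOC105283662 lost it in a model of all 4 groups of day 8 (adjusted p = 0.0524).

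At several places called genes were neighbours in the order of tested genes, whatever the distance between them. Of neighbouring tested genes, 31 pairs were called in the same direction and 10 in opposite directions. Together 57 genes formed 26 runs of at least 2 neighbours called in 1 direction, 8 higher and 18 lower in M. Among all called genes 148 were higher and 216 lower in M. Some runs were wide, up to 586 kb for LOC105279193 and LOC113563646 on chromosome 2. Whether neighbouring calls were more frequent than a random spread of calls would give was not tested. The longest run held 4 genes in 27.9 kb of chromosome 9 (4374284 to 4402164), all higher in M. LOC105285039 led it, at 18.7 to 37.8 CPM in M (median 26.1) and 1.28 to 10.2 CPM in B (median 2.49), with a log2 fold change of 2.89 ± 0.27 (SE, with adjusted p = 2.3e-08). LOC113562561 followed at medians of 20.7 and 3.42 CPM (2.23 ± 0.20 SE, with adjusted p = 4.09e-09) and LOC105285042 at 23.3 and 4.47 CPM (2.26 ± 0.20 SE, with adjusted p = 3.67e-09). LOC113562566 was the weakest, at 2.52 and 0.651 CPM (1.90 ± 0.37 SE, with adjusted p = 0.00148). The genotypes did not overlap in the first 3 genes and overlapped in LOC113562566. That gene lies inside LOC105285042 on the same strand, and the reads of the pair cannot be told apart where they share exon bases. On either side the nearest tested genes, LOC105287253 (-0.11 ± 0.07 SE) and LOC105279114 (0.13 ± 0.18 SE), were not called. LOC105279114 starts at 4407606, close to the run. LOC105287253 ends far before it, at 3519337, and no gene between was tested, so the run is not closely bounded on that side.

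On chromosome 11, 3 genes within 8.14 kb (13022187 to 13030327) were higher in M. LOC113562974 lay in the middle, with LOC105275343 before it (6.09 CPM ± 1.19 SD, n = 14, against 1.56 ± 0.504 SD, n = 10; log2 fold change 1.95 ± 0.16 SE) and LOC113562975 after it (10.7 CPM ± 1.01 SD against 1.85 ± 0.375 SD; 2.52 ± 0.11 SE). Each was higher in every M brain than in any B brain, and they are read from alternating strands. The next gene, LOC105275349, starts at 13030370 on the same chromosome and stood at 210 CPM ± 18 (n = 14, SD) and 207 CPM ± 14.7 (n = 10, SD), a log2 fold change of 0.03 ± 0.05 (SE). On chromosome 12 a run of 3 genes (3059656 to 3122090) was lower in M. The lncRNA LOC105283424 ranged from 3.60 to 8.94 CPM in B (median 5.43) and from 0.0834 to 2.09 CPM in M (median 0.761; log2 fold change -2.79 ± 0.28 SE, with adjusted p = 3.95e-08), and its neighbours LOC113561427 and LOC105285112 were lower by -2.02 ± 0.52 (SE) and -1.36 ± 0.25 (SE). Near one end of chromosome 12 (13917 to 25590), log2 fold changes of -1.37 to -0.23 marked a second run of 3 lower genes. The genes of these runs outside the rule for named genes were chosen after their values were seen.

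**Figure D3:**
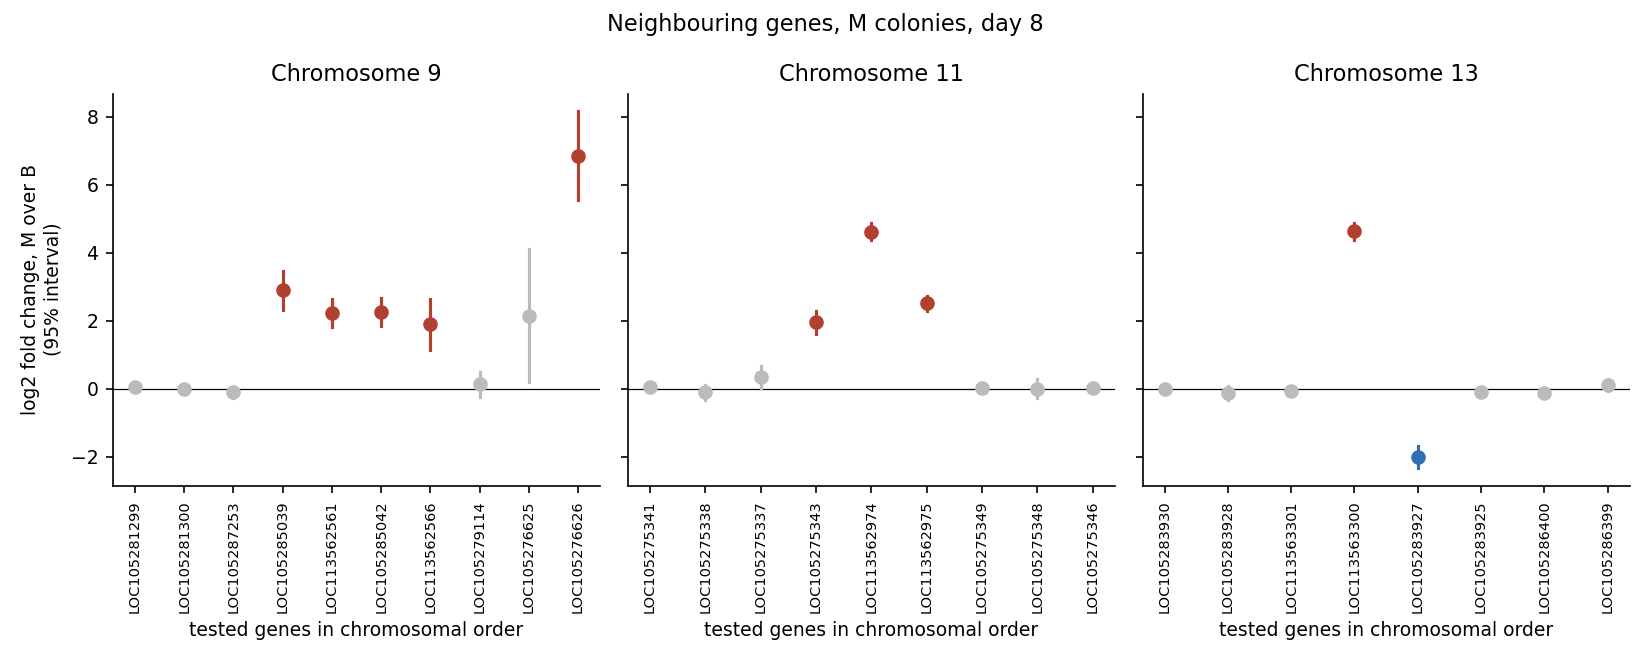
Log2 fold change of genotype M over B with its 95% interval (vertical axis) for tested genes in chromosomal order (horizontal axis, not to scale) at places on chromosomes 9, 11 and 13, in M colonies at day 8. Red points were called higher and blue points lower in M, and grey points were not called. On chromosome 9, 4 neighbours and on chromosome 11, 3 neighbours are higher in M between tested genes near 0. The tested gene before the run on chromosome 9 lies far from it, ending at 3519337. The pair on chromosome 13 goes in opposite directions. Farther along chromosome 9, LOC105276626 is also called (log2 fold change 6.86).

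A pair of neighbours on chromosome 13 differed in opposite directions between the genotypes. LOC113563300 (1762323 to 1767441), 1 of the 3 most abundant genes called higher in M, ranged from 295 to 510 CPM in M with a median of 429 and from 9.93 to 24.3 CPM in B with a median of 17.7. Its means were 430 CPM ± 57.5 (n = 14, SD) and 17.3 CPM ± 3.83 (n = 10, SD), a log2 fold change of 4.63 ± 0.12 (SE, with adjusted p = 1.88e-20). The next tested gene, LOC105283927 (1777882 to 1782533), lies 10440 bases away on the same strand, also with 7 exonic segments, and went the other way. It ranged from 91.9 to 169 CPM in M (median 123) and from 147 to 648 CPM in B (median 521), a log2 fold change of -2.01 ± 0.15 (SE, with adjusted p = 5.2e-10). The only overlap came from genotype B replicate 2, 1 of the libraries that stood apart, and without it the B brains lay at 393 CPM or above. The gene was picked out after its values were seen.

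The sum of the pair was similar in level, at 553 CPM ± 62.0 (n = 14, SD) in M and 513 CPM ± 144 (n = 10, SD) in B, and at 560 CPM ± 52.4 (n = 11, SD) and 552 CPM ± 76.6 (n = 9, SD) without the 4 libraries. LOC113563300 made up 77.6% ± 3.88 (n = 14, SD) of the sum in M and 3.63% ± 1.12 (n = 10, SD) in B. Per kb of exons, LOC113563300 stood at 270 CPM and LOC105283927 at 72.7 CPM in M, and at 10.9 and 293 CPM in B, so the order of the pair differed between the lineages. The sum was not tested. Neither gene shares exon bases with another in the annotation, but whether the authors' counting could split reads between them was not tested. Genes on either side were not called, LOC113563301 at -0.07 ± 0.07 (SE) and LOC105283925 at -0.11 ± 0.07 (SE). The same opposite directions were seen in brains outside this comparison, with log2 fold changes of 4.63, 4.55 and 4.26 for LOC113563300 and of -1.96, -1.72 and -1.56 for LOC105283927 in B colonies at day 8, M colonies at day 1 and B colonies at day 1.

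**Figure D4:**
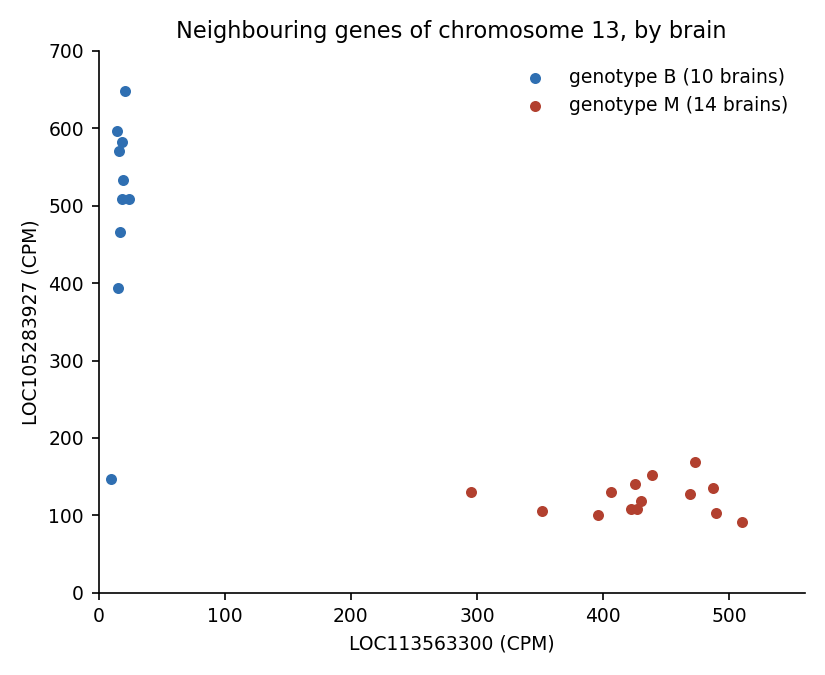
Expression in CPM of LOC113563300 (horizontal axis) and its neighbour LOC105283927 (vertical axis) in each brain from M colonies at day 8, with 10 brains of genotype B in blue and 14 of genotype M in red. The B brains lie at no more than 24.3 CPM of the first gene and the M brains at no more than 169 CPM of the second; the lowest B point is replicate 2 (147 CPM of the second gene).

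Called genes were spread over all 14 chromosomes, from 2.10% of tested genes on chromosome 8 (13 of 618) to 9.17% on chromosome 13 (31 of 338; 11 higher and 20 lower in M), beside 3.95% of all tested genes. Chromosome 12 held 26 called genes (5.11% of 509 tested), 22 of them lower in M, beside 216 of all 364 called genes (59.3%). LncRNAs were called in 26 of 407 cases (6.39%) and protein-coding genes in 336 of 8777 (3.83%). At least 2-fold differences were found in 13 of the 26 lncRNAs and in 80 of the 336 protein-coding genes. By level, 118 of 1868 genes at 1 to 10 CPM were called (6.32%), and 52 of 2363 genes over 100 CPM (2.20%). These shares are descriptions and were not tested. Of the 364 called genes, 121 (33.2%) share exon bases with another gene, 22 of them on the same strand, beside 2719 of the 9210 tested genes (29.5%). The 95% interval of the fold change lay within 1.5-fold in either direction for 80.8% of tested genes and within 2-fold for 92.6%, and smaller differences were not detectable for every gene.

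The same contrast was fitted in 3 sets of other brains that share no library with these 24: B colonies at day 8 (12 M and 10 B brains; 219 of 9204 genes called, 2.38%), M colonies at day 1 (20 and 9; 340 of 9485, 3.58%) and B colonies at day 1 (14 and 7; 514 of 9528, 5.39%). Of the 356 called genes also tested in B colonies at day 8, 355 had the same sign there and 160 were called. Those 160 were 44.9% of the calls in M colonies and 73.4% of the calls in B colonies among genes tested in both. At day 1, 327 of 354 had the same sign in M colonies and 164 were called (46.3% and 49.5% of the 2 lists), and in B colonies 291 of 355 had the same sign and 145 were called (40.8% and 29.2%). None of the 364 genes was called in the opposite direction in any of the 3 sets. Among the genes not called in M colonies at day 8, the share with the same sign was 70.2%, 55.9% and 41.5% in the 3 sets.

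Altogether 99 genes (43 higher and 56 lower in M) were called in the same direction in all 4 comparisons. They were among 106 genes called in each of the 3 other sets, 1.17% of the 9048 genes tested in all 4. Their median size in M colonies at day 8 was 1.09 on the log2 scale, and 51 of them differed by at least 2-fold. Large differences recurred at nearly the same size: among called genes of at least 2-fold the median was 1.62 in M colonies and 1.49 in B colonies at day 8. Of the 7 genes with counts in almost only 1 genotype, 5 were called in all 4 comparisons. LOC105276304 was not tested at day 1 and LOC113563366 not in B colonies at day 1, since they did not pass the count filter there. For LOC105276304 the log2 difference of fold changes between day 8 and day 1 in M colonies was 2.94 ± 1.42 (SE, with edgeR adjusted p = 0.647). At the other end, 150 genes were called in M colonies at day 8 alone, with a median size of 0.34, and 13 of them differed by at least 2-fold. Being called in M colonies alone does not show a difference between colonies. All the called genes were taken because they passed in M colonies at day 8. Among those also tested in another set, the median size was 0.49 in M colonies at day 8. It was 0.38, 0.29 and 0.27 in the 3 other sets.

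**Figure D5:**
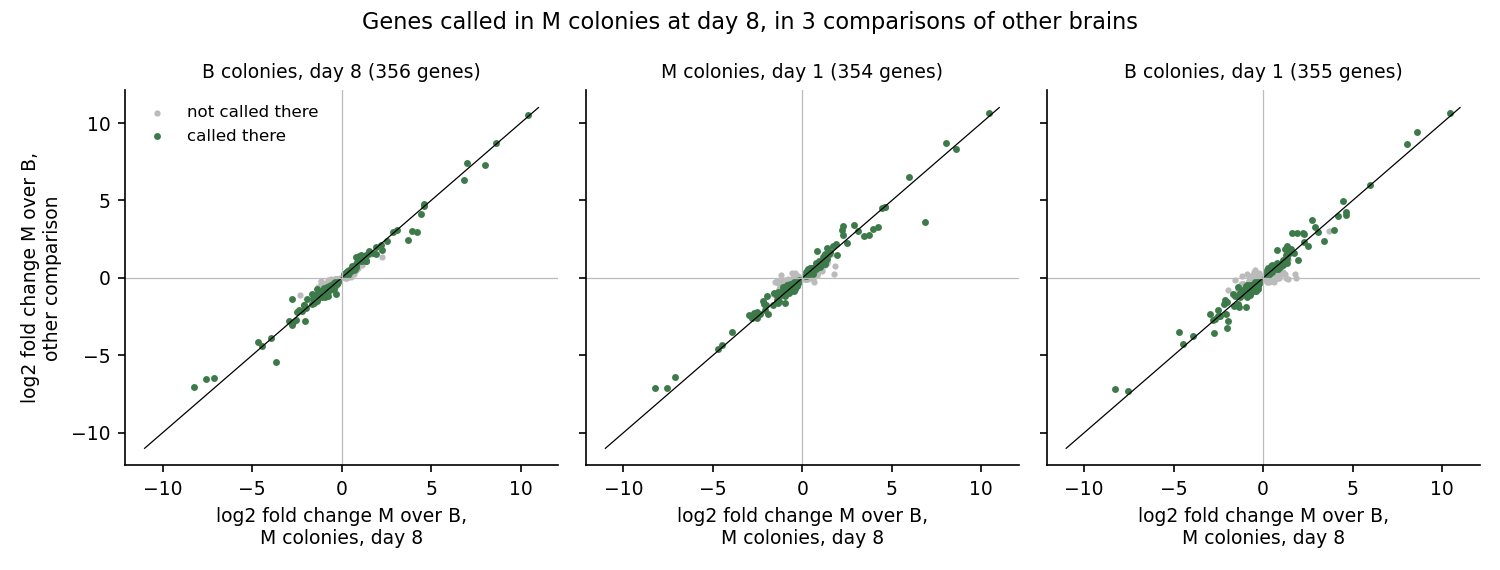
Log2 fold change of genotype M over B in 3 sets of other brains (vertical axes) against that in M colonies at day 8 (horizontal axes) for the genes called in M colonies at day 8, 1 point per gene (356, 354 and 355 genes). Green points were also called in the other set, grey points were not, and the line marks equal values; the large differences lie near the line in each panel, while grey points near 0 spread to both signs at day 1.

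Whether the genotype difference depended on the colony was tested directly over the 46 brains of day 8. No gene passed in edgeR (0 of 9472, with 223 or 2.35% at an unadjusted p under 0.05), and limma-voom also called 0 genes (160 at an unadjusted p under 0.05). Without libraries that stood apart edgeR again called 0, with 441 at an unadjusted p under 0.05. Of the 32 genes named by rule, 26 had fold changes that differed between colonies by less than 2-fold, among them LOC113563300 (log2 difference 0.00 ± 0.19 SE) and LOC113562974 (-0.11 ± 0.32 SE). The share of all tested genes within this limit was not worked out, and named genes with small differences could hardly pass it. LOC113562066 and LOC113563188, also among the 26, had 0 counts in genotype B in both kinds of colony and no usable standard error. In the other 6 the estimates lay farther apart, and each had an adjusted p of 1. The log2 fold change was 4.20 in M colonies and 2.97 in B colonies in LOC105282891 (difference 1.24 ± 0.43 SE), 3.70 and 2.42 in LOC105285513 (1.29 ± 0.70 SE), and -2.74 and -1.33 in LOC105284358 (-1.41 ± 0.50 SE). LOC105280910 stood at -3.64 and -5.46 (1.83 ± 0.93 SE). LOC113563356, with 5 counts over the M brains of M colonies, had a difference of -1.23 ± 0.47 (SE), and LOC105283886, with 0 counts there, is also among the 6. An adjusted p above the threshold does not show that the colonies were alike in these genes. The only gene called in M colonies whose sign was opposite in B colonies at day 8, LOC105284146, had log2 fold changes of 0.23 and -0.03. It was singled out after its values were seen.

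Between day 1 and day 8 within M colonies, the genotype difference changed in 6 of 9729 genes (0.0617%), with 735 (7.55%) at an unadjusted p under 0.05. Limma-voom called 5 genes, as did edgeR without libraries that stood apart. The titles of the libraries take another form at each age, so age cannot be told apart from a difference between sets of libraries. The clearest case was LOC105279007 on chromosome 9 (8835959 to 8843561). At day 8 it stood at 296 CPM ± 16.6 (n = 14, SD) in M and 547 CPM ± 36.2 (n = 10, SD) in B, and at day 1 at 288 CPM ± 23.6 (n = 20, SD) and 399 CPM ± 25.3 (n = 9, SD). It was lower in M at both ages, by log2 fold changes of -0.88 ± 0.04 (SE) and -0.47 ± 0.05 (SE), and farther at day 8 (difference -0.41 ± 0.06 SE, edgeR adjusted p = 8.87e-05). In B colonies the values were -0.78 ± 0.04 (SE) at day 8 and -0.46 ± 0.07 (SE) at day 1, and the gene was called at both ages.

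In LOC105279708 on chromosome 7 (12812328 to 12814789) genotype M was higher at day 8, at 6.83 CPM ± 1.35 (n = 14, SD) against 4.29 CPM ± 0.858 (n = 10, SD), and at day 1 the means were 10.3 CPM ± 1.92 (n = 20, SD) in M and 12.2 CPM ± 2.50 (n = 9, SD) in B (difference 0.91 ± 0.17 SE, with adjusted p = 0.00495). LOC105275706 on chromosome 4 was lower in M at day 8 (46 against 57.8 CPM) and had nearly equal means at day 1 (36.8 against 36 CPM; difference -0.36 ± 0.07 SE, with adjusted p = 0.00917). LOC105285380 on chromosome 7 was called higher in M at day 1 (17.3 against 8.75 CPM) and was not called at day 8 (2.40 against 4.39 CPM, adjusted p = 0.0685; difference -1.84 ± 0.35 SE, with adjusted p = 0.00543). The other 2 genes share exon bases with a neighbour: LOC105281519 on chromosome 10 (difference -0.95 ± 0.17 SE) on the same strand and LOC105287393 on chromosome 5 (-0.54 ± 0.10 SE) on the opposite strand. Both were called lower in M at day 8, by -1.13 and -0.35, and were not called at day 1. In B colonies at day 8, LOC105281519 was also called (log2 fold change -1.02). The other 4 were not called there: LOC105279708 stood at 0.28 (0.67 in M colonies; adjusted p = 0.491), LOC105287393 at -0.08 (adjusted p = 0.754), LOC105275706 at -0.18 (-0.33 in M colonies; adjusted p = 0.154) and LOC105285380 at -0.47 (adjusted p = 0.602).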

How the data were processed

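Per the labels, Tri reagent was used to extract RNA from whole brains, and libraries were built with a KAPA stranded mRNA kit. Per the submitters' processing notes, STAR 2.7.8a and featureCounts were used; no source used here gives the genome build, the strand setting or how multiply aligned reads were handled. The authors deposited raw counts per gene for 13755 features in 96 libraries, with no normalization. Outside tRNA genes, every feature had the span that RefSeq gives it in its Obir_v5.4 annotation, from which chromosomes, strands, classes and exon overlaps were taken (13556 features matched a single symbol); coordinates are those of the deposited table. Sequences, product names and cell type markers were not used here, so the lists of gene functions and markers planned for this work were void.

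Libraries were grouped by the labels' genotype, social environment and age. Replicate numbers of day 8 follow the order of deposit. No library was counted as a duplicate, since 136 pairs of libraries of a group gave chi-square values of at least 9.6 per gene. CPM values were scaled with TMM factors. Genes were tested in edgeR 4.0.16 (R 4.3.3) by quasi-likelihood F tests with robust dispersion and TMM scaling, after filterByExpr at its minimum of 10 counts. P-values were adjusted by Benjamini-Hochberg over all tested genes, and adjusted p-values come from it unless another tool is named. Each comparison was fitted on its own libraries. Standard errors and 95% intervals were derived from the F statistics. Floors of 3 counts over a group and intervals of count ratios cover counting error only. The genes described are the 12 largest differences in each direction among called genes of at least 1 CPM in the higher group, the 3 most abundant in each direction, those with counts almost only in 1 genotype and the longest run of neighbours; others are said to be chosen after their values were seen, or are the genes called in the test of genotype by age. The comparison, the rule and the alternatives were chosen with earlier results of these data known. Alternatives were other scalings, filters and tools (DESeq2 1.42.0, limma-voom in limma 3.58.1, sva 3.50.0), a model of all 4 groups of day 8, the title number as a covariate, a replicate block at day 1, and leaving out libraries. The main test, and no other procedure, was tried on simulated counts with known fold changes in 50 genes per size. It recovered 42% of genes changed 1.25-fold, 80% at 1.5-fold and 96% at 2-fold. It made 13 false calls among unchanged genes.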

Additional observations from a re-analysis of the deposited data

Results flagged for a closer look

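Among the 10 genotype B brains, single libraries lay apart from the rest of their group at 4 of 28 genes looked at, by a gap to the next value that, as a share of the group's range, exceeded Dixon's 95% critical value. For normally distributed values, chance alone sets about 1 in 20 groups apart in this way. The rate may be higher at low counts. LOC113562974, LOC113561389 and LOC109610738 had 129, 19 and 32 counts over all 10 B brains. LOC113562974 stood at 0.278 CPM in replicate 2, the lowest, with the next brain at 0.618 CPM. LOC105285039, in the run on chromosome 9, stood at 10.2 CPM in the same replicate, the highest, with the next at 5.81 CPM. Replicate 9 had the highest LOC113561389 (0.399 CPM, next 0.16 CPM) and replicate 3 the highest LOC109610738 (0.533 CPM, next 0.255 CPM). Replicate 2 also had the fewest genes with a count, 10046 against 10648 in the next library. All of these genes stayed called without replicate 2.

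The genotype difference in M colonies changed between day 1 and day 8 in 6 genes, by the test of the difference itself. The log2 fold change of M over B was lower at day 8 by -0.41 in LOC105279007, -0.95 in LOC105281519, -0.54 in LOC105287393, -1.84 in LOC105285380 and -0.36 in LOC105275706, and higher by 0.91 in LOC105279708. Age cannot be told apart from the set of libraries.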

How the results depend on the processing

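Of the 364 calls in M colonies at day 8, 354 stayed called with DESeq2 size factors (355 called in all) and 332 with library totals (338). With no filter 327 stayed called (381 in all), with the DESeq2 test 364 (463) and with limma-voom 336 (365). The 4-group model kept 299 (334 in all), 2 surrogate variables 355 (445) and the title number as a covariate 308 (331). With only genes of at least 10 CPM in 10 libraries tested, 218 were called (85 higher and 133 lower in M), because 236 of the 364 were tested, and 217 of these stayed called. Leaving out 1 library gave 280 to 384 calls, 118 to 165 higher and 162 to 228 lower. At the fewest, without genotype B replicate 6, 277 of the 364 stayed called. LOC105280910 moved from a log2 fold change of -3.64 to -5.23 without the libraries that stood apart. With limma-voom LOC105280910, LOC105285960 and LOC113561427 stood at -4.64, -4.16 and -2.80, against -3.64, -2.70 and -2.02. No called gene changed sign under these settings. The 99 genes called in all 4 comparisons numbered 99 with DESeq2 size factors and 117 without libraries that stood apart. Of the genes described, LOC105279628, LOC105280070, LOC105284665 and LOC105283662 lost their call under some settings. Apart from the settings that left out a single library, the adjusted p-values of these lost calls were 0.0503 to 0.0777. LOC105285380 gained a call with DESeq2 (adjusted p = 0.0287). The cause of these changes was not tested.

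Titles of day 8 share no numbers between genotypes, so no pairing could be fitted there. At day 1, with the shared title number as a replicate block, 159 genes were called in M colonies and 133 in B colonies, against 340 and 514 without it. Only 4 of 9 and 2 of 7 same-numbered pairs correlated above 0.1, and 1 of 18 and 1 of 14 libraries correlated best with its own number, so the numbers were not taken to pair the ants.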
